A study of Mus musculus with 8 samples.

Results

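The 10 genes described here encode RNA-binding proteins that act on AU-rich elements, on short stem-loops or on pyrimidine-rich tracts of mRNA: Zfp36, Zfp36l1, Zfp36l2, Rc3h1, Rc3h2, Zc3h12a, Elavl1, Tia1, Ptbp1 and Ptbp3. They were chosen by name, and each matched 1 of the 53242 genes in the tables. Their RNA was compared between B cells without and with a deletion of Eif4a1, the gene of an RNA helicase of the cap-binding translation initiation complex. Control mice were Eif4a1 +/+ CD23-cre and 4A1 KO mice were Eif4a1 fl/fl CD23-cre, so both genotypes carried the Cre, which the Cd23 promoter drives in maturing B cells. All mice were C57BL/6 and 8 to 12 weeks old. Their splenic B cells received IL4 (40 ng/ml) during 24 h of culture on irradiated (120 Gy) CD40LB fibroblasts, which present CD40 ligand, and these feeders were removed with antibody-coupled beads before RNA was isolated. There were 4 libraries per genotype. Male mice gave replicates 1 and 3, and female mice gave replicates 2 and 4. Batch A held replicates 1 and 2, and batch B held replicates 3 and 4. The batch A males, replicate 1, were left out of differential expression in the study because of reduced viability, so tests used replicates 2 to 4 (n = 3 per genotype) and values are shown for all 8 libraries.

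AU-rich elements in 3′ UTRs, built from ATTTA pentamers, mark short-lived mRNAs of cytokines, cyclins and early response genes. ZFP36 and its paralogs ZFP36L1 and ZFP36L2 bind them through CCCH zinc fingers and recruit the CCR4-NOT deadenylase, whereas ELAVL1 (HuR) is known to stabilise AU- and U-rich mRNAs and TIA1 to restrain their translation. Roquin-1 and Roquin-2, encoded by Rc3h1 and Rc3h2, and the endonuclease Regnase-1, encoded by Zc3h12a, bind small hairpins with a loop of 3 bases, such as the constitutive decay element of Tnf. The polypyrimidine tract binding proteins PTBP1 and PTBP3 regulate splicing and mRNA stability. ZFP36L1 and ZFP36L2 are known for restraining the cell cycle in developing B cells, and PTBP1 is known to be required by germinal centre B cells.

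The 3′ UTRs of the members were searched for the kinds of element that these proteins bind. The nonamer TTATTTATT was found in the annotated 3′ UTR of 6 of the 10 genes, compared with 8.96% of the 11295 tested genes with a 3′ UTR. The sites below are shown because they are the single nonamer match of each ZFP36 family gene and the first match in Elavl1. Capitals mark the nonamer, and coordinates are GRCm39 with the strand of the gene.
Zfp36, chr7:28076378-28076402, minus strand: tgacgactTTATTTATTgtattaag
Zfp36l1, chr12:80154943-80154967, minus strand: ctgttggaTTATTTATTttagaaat
Zfp36l2, chr17:84492344-84492368, minus strand: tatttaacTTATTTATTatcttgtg
Elavl1, chr8:4335790-4335814, minus strand: catgaaaaTTATTTATTtatttatt
In Elavl1 this was the first of 8 nonamer matches, which overlap one another in part and start within bases 3794 to 3840 of its 3′ UTR. Rc3h1 held 1 match and Rc3h2 held 2, and Zc3h12a, Tia1, Ptbp1 and Ptbp3 held none.

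Long 3′ UTRs hold such motifs more often, so each member was set beside the tested genes whose 3′ UTR was 80 to 125% as long as its own. The 774-base 3′ UTR of Zfp36 had its nonamer where 4.85% of similar 3′ UTRs had one, Zfp36l1 (1835 bases) where 9.26% did and Zfp36l2 (2049 bases) where 9.72% did. Among 3′ UTRs as long as that of Elavl1 (7024 bases) the share was 25.6%, and it was 26.4% for Rc3h1 (7181 bases) and 22.3% for Rc3h2 (6336 bases). Over all 10 the shares add up to 1.45 genes, beside the 6 that held a nonamer. Rc3h2 had 27 ATTTA pentamers, more than 97.5% of similar 3′ UTRs, and Zfp36l1 had 9, more than 95.6%. Ptbp1 had 2, the median of its length class. A match describes the letters and does not show that a protein binds there.

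Hairpins were searched on the sense strand as a loop of 3 bases, pyrimidine-purine-pyrimidine, closed by at least 5 Watson-Crick pairs. They were found in 5 of the 10 members (Rc3h1, Rc3h2, Zc3h12a, Ptbp3 and Tia1) and in 26.0% of all tested 3′ UTRs. Rc3h1 and Rc3h2 carried an identical hairpin of 15 bases with 6 pairs, which stood in 2 of the 20827 canonical 3′ UTRs searched, these 2. It was picked because both genes hold it, so its presence in them is no finding. An exact run of 15 bases is also rarely met elsewhere. The hairpins below are shown because the letters around the loop of the Roquin genes are those of the Tnf and Nfkbid elements, and because Zc3h12a has 3 hairpins of its own. Capitals mark the loop.
Rc3h1, chr1:160799230-160799244, plus strand: aacttcTGTgaagtt
Rc3h2, chr2:37263821-37263835, minus strand: aacttcTGTgaagtt
Tnf, chr17:35418561-35418575, minus strand: gttttcTGTgaaaac
Nfkbid, chr7:30127827-30127841, plus strand: gatttcTGTgaaatc
Zc3h12a, chr4:125012862-125012876, minus strand: gatacaCATtgtatc
Zc3h12a, chr4:125012680-125012694, minus strand: aggcacCATgtgcct
Zc3h12a, chr4:125012455-125012471, minus strand: atttaaaTATtttaaat
A hairpin whose loop is preceded by TTC and followed by GAA was present in 105 tested 3′ UTRs (0.93%). The pattern was read from the hairpins above, so its presence in Rc3h1, Rc3h2, Tnf and Nfkbid was fixed by that choice and is no finding. It was present in no other member and in 4 of the 10 other genes listed as described stem-loop targets, which were listed for such elements. Among 3′ UTRs as long as that of Zc3h12a (856 bases), 16.1% held any hairpin. The share was 71.2% for Rc3h1, 66.1% for Rc3h2, 57.5% for Ptbp3 and 42.4% for Tia1, and it was 71.3% for Elavl1, where none was found. The shares of the 10 add up to 4.23 genes, so hairpins in 5 of the 10 members are near what 3′ UTRs of their lengths hold. Of the 4 hairpins of Rc3h1, 2 overlap in a TA repeat.

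**Figure D1:**
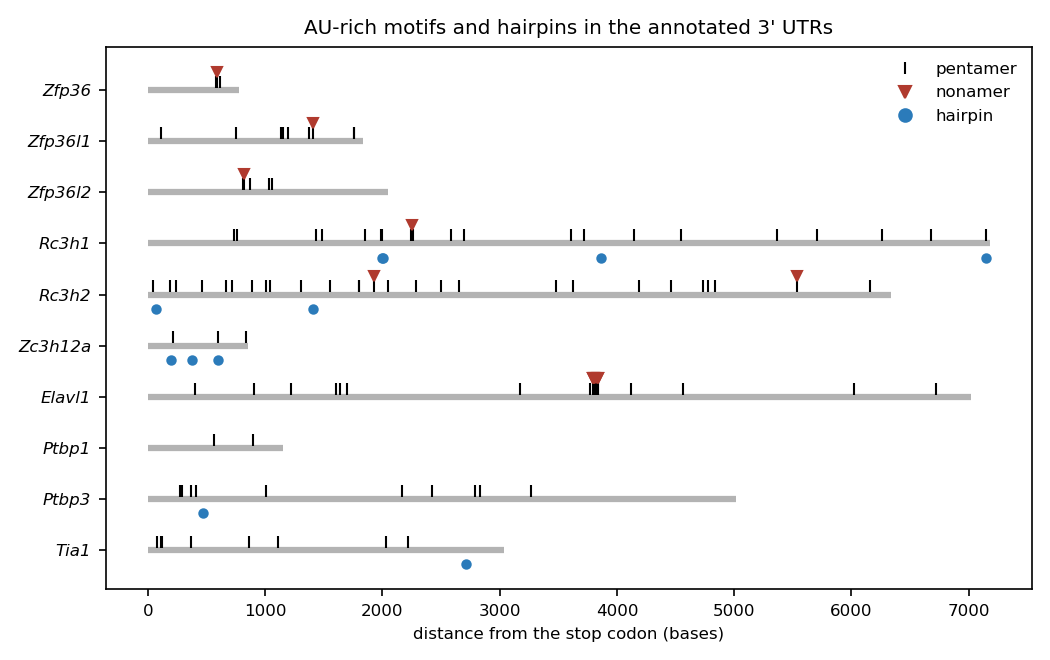
Positions of ATTTA pentamers (ticks), TTATTTATT nonamers (triangles) and hairpins (circles) along the annotated 3′ UTR of each gene, drawn as a grey line to scale in bases from the stop codon. The nonamers lie singly in the ZFP36 family genes and in a cluster in Elavl1, and the 3 hairpins of Zc3h12a are spread over 856 bases.

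The 6 tested libraries held 38488341 to 43210858 counted reads, and the smallest of the 8 held 31727557. Eif4a1 was lower in 4A1 KO cells in all 4 pairs, at 748 to 940 normalised CPM (reads scaled to library size) in the 4 control libraries and 556 to 689 in the 4A1 KO libraries (log2 fold change -0.44 ± 0.05 SE, edgeR adjusted p = 1.15e-04). The floxed allele removes exons 2 to 4, and the gene-level count does not separate these exons from the rest. Markers of B cells summed to 3520 to 3726 CPM in control and 2880 to 3104 in 4A1 KO libraries. The 10 fibroblast markers summed to 28.3 to 49.7 and 23.9 to 35.6 CPM with Postn at 0 in all libraries, and the 8 myeloid markers to 8.68 to 14.7 and 14.2 to 16.3 CPM with S100a8 and S100a9 at 0. T cell markers summed to 14.9 to 23.8 and 10.3 to 19.3 CPM with Cd3g at 0, plasma cell markers to 622 to 929 and 549 to 691 CPM, and erythroid markers to at most 0.15 CPM. Irf4 made up most of the plasma cell sum (576 and 512 CPM, not called), and 3 of 5 tested plasma cell markers fell, with log2 fold changes of -0.94 for Xbp1, -1.22 for Sdc1 and -0.64 for Prdm1. Of the tested markers 3 of 6 of B cells fell (Cd79b, Cd22 and Cd79a), 1 of 4 of myeloid cells rose (Adgre1), and 1 of 7 of fibroblasts rose (Fn1) and 1 fell (Col3a1), where the same rule, given below, called 11.6% of all genes higher and 13.7% lower. The myeloid and fibroblast calls rest on few reads and moved with the libraries used. Myeloid calls numbered 2 without replicate 2 or replicate 3 and 0 without replicate 4, fibroblast calls ran from 1 without replicate 3 to 3 without replicate 4, and without the replicate block there were 0 of either. The fibroblast median log2 fold change was -0.41, and 0.52 without replicate 2. The part of these shifts in the values of the 10 regulators was not tested. In bulk RNA of the purified cells, fewer cells of a type and less RNA per cell cannot be told apart.

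Of the 10 regulators, Rc3h2 and Zc3h12a rose in 4A1 KO cells and none fell, where a call needed an edgeR adjusted p under 0.05 together with a log2 fold change beyond ±0.5. All 10 passed the filter on low counts. The same rule called 25.3% of the 14218 genes tested, 11.6% higher and 13.7% lower, so 2 called of 10 is near the share among all genes. At an adjusted p under 0.05 alone there were 5 of 10 (Rc3h2, Zc3h12a, Tia1, Zfp36l1 and Zfp36l2), compared with 53% of all genes. These were 4 higher and 1 lower, and 26.3% of all genes were at this threshold and higher. Beside the 0 that fell, 1 member (Zfp36l2) was lower at an unadjusted p under 0.05, and DESeq2 also called 0 lower. The median log2 fold change was 0.20 over the 10 and 0.01 over all genes tested. Without replicate 3 the median of the 10 was 0.09, and without replicate 4 it was 0.28 with 8 of 10 at an adjusted p under 0.05. By limma on log2(TPM + 1), where TPM scales reads by gene length and depth, 4 of 10 passed an adjusted p of 0.05 compared with 47.2% of 12976 genes. Over all 8 libraries the genotypes did not overlap for 5 of the 10 in normalised CPM, compared with 36.8% of 14211 genes.

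**Figure D2:**
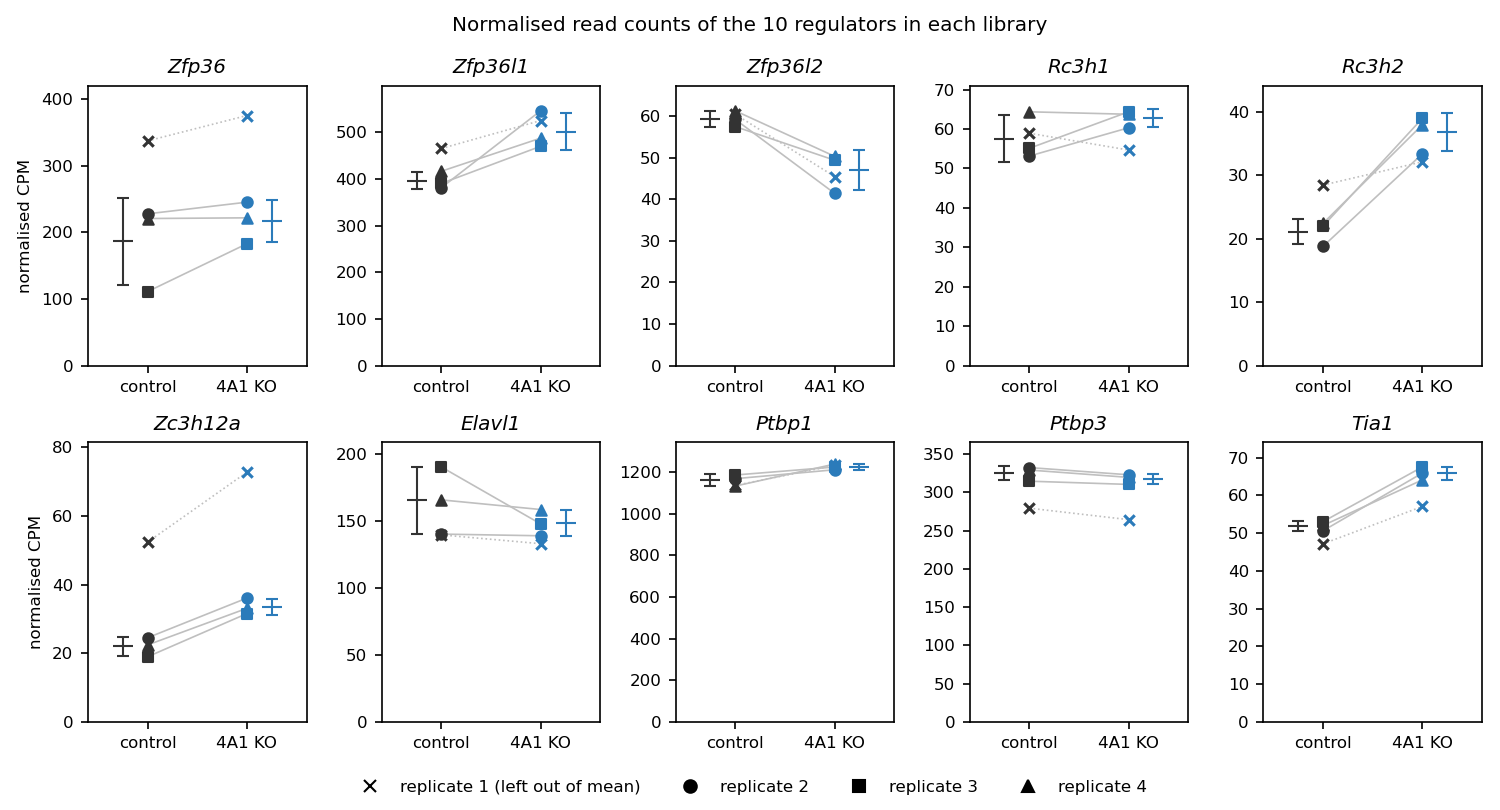
Normalised CPM (vertical axes, linear from 0) of the 10 regulators in the 8 libraries, with lines joining libraries of the same replicate number and bars giving the mean ± SD of replicates 2 to 4 (n = 3). The genotypes separate for Zfp36l1, Zfp36l2, Rc3h2, Ptbp1 and Tia1, and replicate 1 (crosses) stands above the others for Zfp36 and Zc3h12a in both genotypes.

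**Figure D3:**
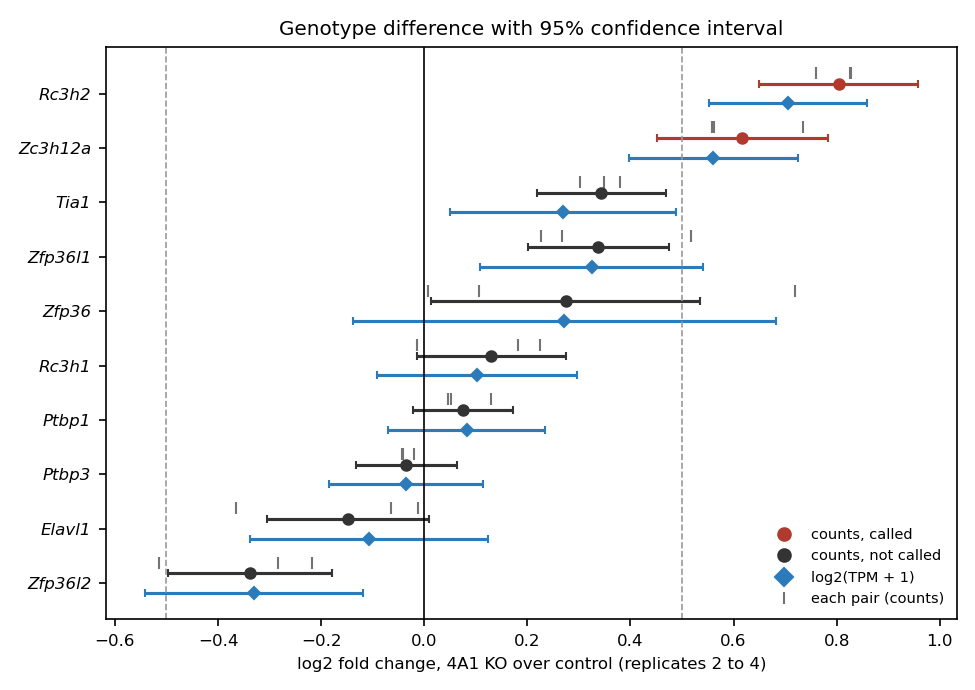
Log2 fold changes of 4A1 KO over control for replicates 2 to 4, from counts (circles) and from log2(TPM + 1) (diamonds), each with its 95% confidence interval; ticks are the 3 pairs and dashed lines mark ±0.5. Rc3h2 and Zc3h12a lie beyond 0.5 in both measures, and Zfp36l2 is the lowest of the 10.

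The 3 genes of the ZFP36 family differed in direction. Zfp36l1, the most abundant of the 3 on the TPM scale, was at 465, 381, 390.1 and 416 normalised CPM in control replicates 1 to 4 and at 525, 546, 469.7 and 487 in 4A1 KO replicates 1 to 4. Every 4A1 KO library was above every control library, the nearest being 469.7 against 465 CPM. Its means were 396 ± 18.2 and 501 ± 39.9 CPM (SD, n = 3), with a log2 fold change of 0.34 ± 0.06 (SE) and an edgeR adjusted p of 0.00153, which is below the fold threshold. Its pseudogene Zfp36l1-ps is 94.7% identical over 903 bases and had at most 14 counts in a library. Zfp36l2 went the opposite way, at 60.4, 59.1, 57.4 and 61.2 CPM in control and 45.4, 41.4, 49.4 and 50.3 CPM in 4A1 KO libraries. The control libraries lay close together and each was above every 4A1 KO library. The log2 fold change was -0.34 ± 0.07 (SE, edgeR adjusted p = 0.00331), from 59.3 ± 1.90 to 47.0 ± 4.89 CPM. For both genes the exact permutation test over 8 libraries gave a two-sided p of 0.0286, the smallest that 4 against 4 allows. That test ignores the batch and sex that same-numbered libraries share, and exchanging labels within the 4 pairs could not give an exact p below 0.125.

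Zfp36 itself, the early response member of the family, varied widely between replicates of both genotypes. It was at 337, 228, 111 and 221 CPM in control and at 375, 245, 183 and 222 CPM in 4A1 KO libraries, so the genotypes overlapped. Replicate 1 was the highest in both genotypes and replicate 3 the lowest. The log2 differences within the 4 pairs were 0.15, 0.11, 0.72 and 0.01, and the fitted value was 0.27 ± 0.11 (SE, edgeR adjusted p = 0.0731). Without replicate 3 the value was 0.06, and the adjusted p ran from 0.00158 to 0.529 over 10 alternative settings, with 2 of them under 0.05. The SD of its log2 CPM over the 4 control libraries, 0.67, exceeded that of 94.2% of tested genes. That of Zfp36l2, 0.04, exceeded 2.67%. The transcript of Zfp36 had matches of at most 176 bases in 956 other genes, and that of Zc3h12a matches of at most 187 bases in 266.

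Expressed per length, Zfp36l1 made up 60.9 ± 7.15% of the summed TPM of the 3 genes in control cells and 63.8 ± 1.47% in 4A1 KO cells (SD, n = 3). Zfp36 made up 31.1 ± 7.91% and 30.8 ± 1.94%. The share of Zfp36l2 was 7.99 ± 0.77% in control and 5.34 ± 0.95% in 4A1 KO cells. Over all 8 libraries its share was 5.94 to 8.89% in control and 4.13 to 6.05% in 4A1 KO libraries, ranges that overlap slightly because of control replicate 1. These shares are descriptions and were not tested.

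The Roquin genes differed from each other. Rc3h2 (Roquin-2) was at 28.4, 18.8, 22.0 and 22.4 CPM in control and at 32.1, 33.4, 38.9 and 37.9 CPM in 4A1 KO libraries. No library of one genotype reached into the range of the other, and the difference was smallest in replicate 1. The log2 differences within pairs were 0.18 in replicate 1 and 0.83, 0.83 and 0.76 in replicates 2 to 4. From 21.1 ± 1.98 to 36.7 ± 2.98 CPM (SD, n = 3) the increase was 1.75-fold (log2 fold change 0.80 ± 0.07 SE, 95% confidence interval 0.65 to 0.96, edgeR adjusted p = 3.17e-05). With all 8 libraries in the fit it was 0.64 and still called, and the exact permutation p was 0.0286. Rc3h1 (Roquin-1) was at 58.9, 53.1, 55.1 and 64.4 CPM in control and at 54.7, 60.3, 64.3 and 63.7 CPM in 4A1 KO libraries. Its genotypes overlapped and its pairs did not share a direction, being -0.11, 0.18, 0.22 and -0.01. The fitted log2 fold change was 0.13 ± 0.06 (SE, 95% confidence interval -0.01 to 0.28, edgeR adjusted p = 0.117). It was 0.20 without replicate 4 (adjusted p = 0.0218), 0.09 without replicate 3 and 0.07 with all 8 libraries.

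The shares of the Roquin mRNA pool are given as descriptions and were not tested. Rc3h2 was 33.1 ± 1.58% of the summed Roquin TPM in control and 44.6 ± 2.05% in 4A1 KO cells (SD, n = 3). In single libraries the share was 41.6, 32.0, 34.9 and 32.3% in control and 44.9, 42.2, 45.6 and 45.8% in 4A1 KO replicates 1 to 4. Control replicate 1 was the one close to the 4A1 KO range. The summed TPM of the pair was 14.9 ± 1.89 in control and 19.4 ± 1.65 in 4A1 KO cells (SD, n = 3). Over all 8 libraries this sum was 13.27 to 16.98 in control and 16.12 to 20.56 in 4A1 KO libraries, ranges that overlap. In replicate 1 it was lower in 4A1 KO cells, at 16.58 in control and 16.12 in 4A1 KO.

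Zc3h12a, which encodes Regnase-1, rose in each pair. It was at 52.3, 24.5, 19.0 and 22.4 CPM in control and at 72.7, 36.1, 31.5 and 33.1 CPM in 4A1 KO libraries. Replicate 1 of both genotypes stood well above the rest, so the genotypes overlapped over 8 libraries (exact permutation p = 0.257) although replicates 2 to 4 did not overlap. The log2 differences within pairs were 0.47, 0.56, 0.73 and 0.56. In replicates 2 to 4 it went from 22.0 ± 2.79 to 33.6 ± 2.30 CPM (SD, n = 3), a 1.53-fold increase (log2 fold change 0.62 ± 0.07 SE, 95% confidence interval 0.45 to 0.78, edgeR adjusted p = 1.57e-04). By limma on log2(TPM + 1) the difference was 0.56 (adjusted p = 0.00459), and with all 8 libraries 0.51 (adjusted p = 0.117). Rc3h2 and Zc3h12a were called in counts under 10 of 10 alternative settings, at 0.64 to 0.83 and 0.56 to 0.65.

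Among the U-rich binding proteins, Tia1, the gene of a stress granule protein, separated the genotypes with little spread. It was at 47.2, 50.6, 53.0 and 52.0 CPM in control and at 57.1, 65.9, 67.5 and 64.1 CPM in 4A1 KO libraries. All 4A1 KO libraries were above all control libraries, and the pairs were alike at 0.28, 0.38, 0.35 and 0.30. The log2 fold change was 0.34 ± 0.05 (SE, edgeR adjusted p = 8.38e-04), which does not pass the fold threshold, and by limma on log2(TPM + 1) it was 0.27 (adjusted p = 0.0527). An annotated gene on the same strand, Gm44790, shares 353 bases with Tia1 and had at most 473 counts in a library, against 1803 to 2745 for Tia1. Its paralog Tial1 (TIAR) was measured at a log2 fold change of 0.02 (edgeR adjusted p = 0.751). Tia1 was 21.9 ± 1.56% of the summed TPM of the pair in control and 26.2 ± 2.18% in 4A1 KO cells (SD, n = 3). Over all 8 libraries this share was 17.6 to 23.3% in control and 20.9 to 27.7% in 4A1 KO libraries, ranges that overlap. In TPM Tial1 was at 108, 81.5, 101 and 107 in control and at 104, 101, 88.0 and 87.5 in 4A1 KO libraries. The share was not tested.

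Elavl1, which encodes HuR, was at 139.5, 140.1, 190.1 and 166 CPM in control and at 133, 139, 148 and 158 CPM in 4A1 KO libraries. In CPM it was lower in 4A1 KO cells in 4 of 4 pairs, at -0.07, -0.01, -0.36 and -0.06 on the log2 scale, with the genotypes overlapping. In TPM replicate 2 went the other way, at 58.6 in control and 62.4 in 4A1 KO cells. The fitted log2 fold change was -0.15 ± 0.07 (SE, 95% confidence interval -0.30 to 0.01, edgeR adjusted p = 0.104). Without replicate 3 it was -0.03, and without replicate 4 it was -0.19 (adjusted p = 0.0409). Ccl25, on the opposite strand, shares 403 bases with Elavl1 and had at most 121 counts in a library. Its paralogs Elavl2, Elavl3 and Elavl4 had at most 2 counts in any library.

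The PTB genes had the smallest log2 fold changes of the 10. Ptbp1 was at 1137, 1169, 1187 and 1134 CPM in control and at 1233, 1212, 1225 and 1239 CPM in 4A1 KO libraries. The 4 libraries of 4A1 KO cells all lay above those of control cells, yet by little, with log2 differences within pairs of 0.12, 0.05, 0.05 and 0.13. The fitted value in replicates 2 to 4 was 0.08 ± 0.04 (SE, edgeR adjusted p = 0.168), and the exact permutation p of 0.0286 over 8 libraries does not take the pairs into account. Ptbp3 was at 279, 332, 315 and 329 CPM in control and at 264, 323, 310.3 and 319.5 CPM in 4A1 KO libraries. The log2 fold change was -0.03 ± 0.04 (SE, 95% confidence interval -0.13 to 0.06, edgeR adjusted p = 0.527). Ptbp2, the neuronal paralog, was at 17.6 to 27.7 CPM in control and 24.4 to 35.1 CPM in 4A1 KO libraries (log2 fold change 0.39 ± 0.11 SE, edgeR adjusted p = 0.0122). Ptbp1 made up 88.5% of the summed TPM of the 3 in both genotypes, and Ptbp2 1.78 ± 0.11% in control and 2.47 ± 0.42% in 4A1 KO cells (SD, n = 3). Over all 8 libraries the Ptbp2 share was 1.70 to 2.67% in control and 1.98 to 3.53% in 4A1 KO libraries, ranges that overlap. These shares were not tested. A processed copy of Ptbp1, Gm4900, is 95.2% identical over 1662 bases and had at most 335 counts in a library, against 38945 or more for Ptbp1. A further copy, Gm46400 (95.4% over 1754 bases), had 0 counts, and Gm17134, which shares 332 bases on the opposite strand, had at most 4. Gene-level values do not separate the isoforms of Ptbp1, Elavl1 or Tia1.

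On the TPM scale, which allows for length, the levels in control cells (mean of replicates 2 to 4) ran from Ptbp1 at 835 through Zfp36l1 at 253, Zfp36 at 133, Ptbp3 at 92.0, Elavl1 at 68.0, Zfp36l2 at 33.2, Tia1 at 27.0, Zc3h12a at 16.2 and Rc3h1 at 9.98 to Rc3h2 at 4.93 TPM. Neighbours in this order overlapped over the 4 control libraries for Zfp36 and Ptbp3 and for Tia1 and Zc3h12a. In 4A1 KO libraries Tia1 at 27.4 to 33.8 TPM overlapped Zfp36l2 at 22.7 to 28.7 TPM, and Rc3h2 at 7.24 to 9.43 TPM overlapped Rc3h1 at 8.89 to 11.1 TPM. These ranges were apart in control libraries, at 23.1 to 30.6 and 31.7 to 35.4 TPM for the first pair and 4.25 to 6.89 and 9.02 to 11.5 TPM for the second.

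The genotype difference of the 10 genes was not found to depend on sex or batch. Over 8 libraries, edgeR's genotype by sex term had an adjusted p under 0.05 for 0% of 14211 genes (405 genes at an unadjusted p under 0.05), and the genotype by batch term for 0.00704%, which is 1 gene (610 unadjusted). No member had an unadjusted p under 0.05 in either. The standard errors were wide for some, 0.44 for the sex term of Zfp36 and 0.43 for that of Zc3h12a on the log2 scale, so the comparison between sexes is imprecise for them. For Rc3h2 the sex term was -0.30 ± 0.21 and the batch term 0.31 ± 0.21 (SE). These fits include replicate 1, which was left out of the other tests for reduced viability.

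Genes with profiles most like those of the 3 members with the largest changes were sought among 8382 genes, by the root mean square difference of centred log2 CPM over 8 libraries. For Rc3h2 they were Zfp866 (0.0706) and Cecr2 (0.0712), and for Tia1 they were Abhd2 (0.0233) and Gstcd (0.0244). For Zc3h12a they were Dusp2 (0.200), a dual-specificity phosphatase gene, and Sertad1 (0.215), a looser match. The log2 fold changes of Dusp2 and Sertad1 were 0.45 and 0.30. The 8 libraries include replicate 1, where Zc3h12a was at 52.3 CPM in control and 72.7 CPM in 4A1 KO cells, against 19.0 to 36.1 CPM elsewhere. The part of replicate 1 in these matches was not tested.

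The other CCCH endonuclease genes did not follow Zc3h12a. Zc3h12d (Regnase-4) was at 55.1, 60.2, 32.9 and 38.2 CPM in control and at 20.9, 25.2, 16.1 and 22.6 CPM in 4A1 KO libraries. It fell without overlap of the genotypes, with a log2 fold change of -1.02 ± 0.10 (SE, edgeR adjusted p = 4.77e-05). Zc3h12c (Regnase-3) had a log2 fold change of -0.33 (edgeR adjusted p = 0.00840). Among the 4 tested paralogs of the members, 0 rose and 1 fell, where 11.6% of all genes were called higher and 13.7% lower, and at an unadjusted p under 0.05 there were 1 higher and 2 lower. Without replicate 4 the count called was 2. Zfp36l3, Zc3h12b, Elavl2, Elavl3 and Elavl4 had at most 10 counts in any library and were not tested.

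Decay factors and partners of these proteins are given next, and their counts are to be read against the 11.6% of all genes called higher and the 13.7% called lower. At an unadjusted p under 0.05 there were 58.3% of all genes, 29.2% higher and 29.1% lower. Of 10 other AU- or U-rich element binding proteins 1 rose and 0 fell (3 lower at an unadjusted p under 0.05, 0 called lower by DESeq2), with a median log2 fold change of 0.10. The gene that rose was Hnrnpll, a splicing regulator, at 4.09 and 7.22 CPM (log2 fold change 0.83, edgeR adjusted p = 5.82e-04). Of 6 partners of Roquin and Regnase-1, 0 were called by edgeR or DESeq2 (5 at an unadjusted p under 0.05, beside 58.3% of all genes). Their median was 0.17.

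Of 16 deadenylase genes 2 rose and 2 fell, and the median was 0.11. The share called, 4 of 16, is near the 25.3% of all genes. Those that rose were Tob1 (0.68), an antiproliferative adaptor of CCR4-NOT, and Pan3 (0.59), the RNA-binding subunit of PAN2-PAN3. Those that fell were Cnot6 (-0.74), a catalytic subunit of CCR4-NOT, at 157 and 93.8 CPM, and Cnot9 (-0.56), a subunit that contacts RNA-binding proteins, at 170.0 and 115 CPM. Of 17 genes of decapping and 5′-to-3′ decay 1 rose and 2 fell, with a median of -0.02. Dcp1b, a decapping cofactor, rose from 18.1 to 39.3 CPM (log2 fold change 1.12, edgeR adjusted p = 1.97e-05), and Edc3 (-0.65) and the decapping enzyme gene Dcp2 (-0.58) fell. None of 14 genes of the RNA exosome and SKI complex was called by edgeR or DESeq2 (8 at an unadjusted p under 0.05), and their median was -0.06.

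The p38-MK2 pathway phosphorylates ZFP36 so that 14-3-3 proteins bind it. Of 11 genes of this pathway and of 14-3-3 proteins 0 rose and 2 fell, with a median of -0.20. At an unadjusted p under 0.05 there were 2 higher and 7 lower of the 11, beside 29.2% and 29.1% of all genes. DESeq2 called 0 higher. The 2 higher were Mapkapk2, the gene of MK2, and Mapkapk3, at log2 fold changes of 0.19 and 0.27. The 7 lower included the 14-3-3 genes Ywhah, Ywhab, Ywhaz and Ywhag. The kinase genes Map2k6 (log2 fold change -0.98, edgeR adjusted p = 1.06e-04) and Map2k3 (-0.56, edgeR adjusted p = 3.36e-04) fell, from 11.1 to 5.55 and from 67.2 to 45.6 CPM. Both encode activators of p38. Without replicate 2 the count was 1.

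Of 20 genes listed as described targets with AU-rich elements 18 were tested, 2 rose and 3 fell, and the median log2 fold change was 0.05. The share called, 5 of 18, is near the 25.3% of all genes. Leaving out a replicate gave 1 to 4 that rose and 4 to 7 called, and the median was 0.00 without replicate 2, -0.05 without replicate 3 and 0.13 without replicate 4. The chemokine gene Cxcl10 rose from 1.32 to 2.19 CPM (0.84, edgeR adjusted p = 0.0388) and the cell cycle kinase gene Cdk6 from 221 to 356 CPM (0.69, edgeR adjusted p = 3.33e-05). The genes that fell included Ccne2 (-0.95), the gene of a cyclin of the entry into S phase, from 21.9 to 11.5 CPM, and Klf2 (-0.73), a quiescence transcription factor gene, from 23.3 to 14.1 CPM. The third, Ccnd3 (-0.70), encodes a cyclin of G1. DESeq2 called 1 gene of this list higher and 3 lower.

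Of 12 genes listed for stem-loops 9 were tested, 2 rose and 1 fell, with a median of 0.32, against 25.3% called among all genes. Tnfrsf4, which encodes the costimulatory receptor OX40, rose from 1.90 to 3.96 CPM (log2 fold change 1.06, edgeR adjusted p = 7.51e-04), and Nfkbiz, the gene of the nuclear IκB protein IκBζ, rose from 32.6 to 46.1 CPM (0.52, edgeR adjusted p = 0.00311). Tfrc, the transferrin receptor gene whose 3′ UTR also holds iron-responsive elements, fell from 342 to 181 CPM (-0.93, edgeR adjusted p = 1.09e-05). Without replicate 4 the count called in this list was 5 and the median 0.46. Without replicate 3 it was 2, with 1 that rose, and the median was 0.22. With all 8 libraries, without the replicate block and by DESeq2 with normal shrinkage, 1 rose and 1 fell. DESeq2 without shrinkage called 2 higher and 1 lower. Tnf stands in both lists and was chosen for mention after its values were seen. It was at 18.4, 13.7, 3.80 and 13.2 CPM in control and at 18.9, 13.5, 15.0 and 17.3 CPM in 4A1 KO libraries (log2 fold change 0.71 ± 0.30 SE, edgeR adjusted p = 0.0722). Control replicate 3 was the lowest for Tnf and for Zfp36 alike.

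**Figure D4:**
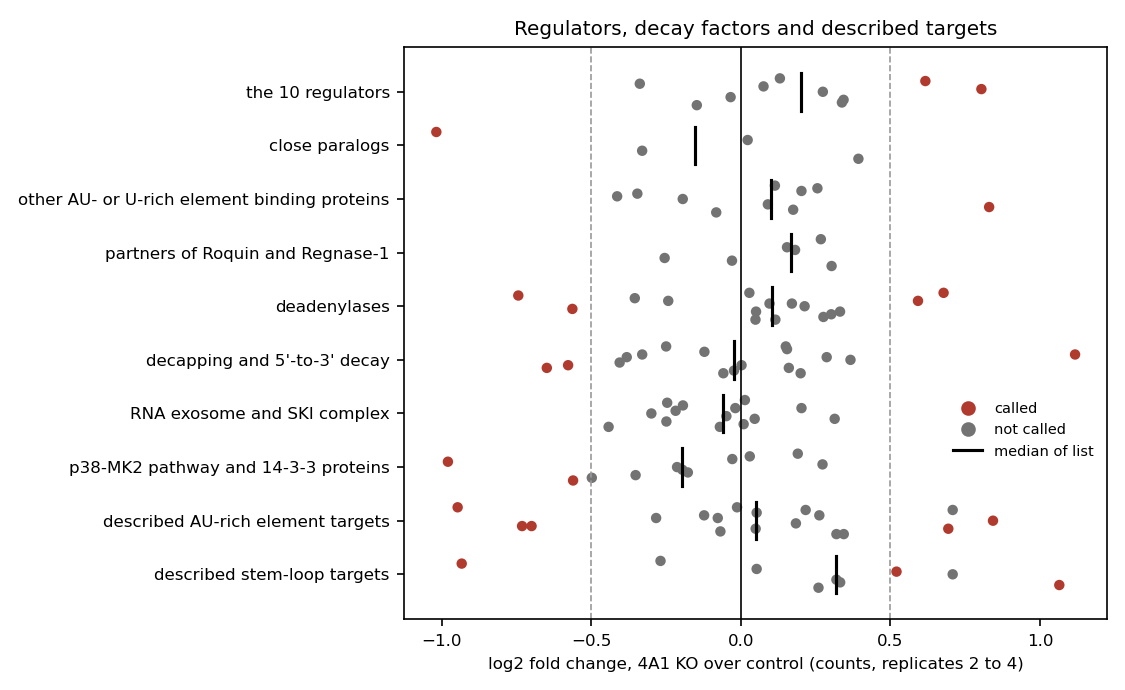
Log2 fold changes of 4A1 KO over control in counts (replicates 2 to 4) for each tested gene of the 10 regulators, their paralogs, decay factors and described targets, with called genes in red, medians as black bars and dashed lines at ±0.5. Called genes lie on both sides of 0 in 4 of the lists, and the partners of Roquin and Regnase-1 and the exosome lie within ±0.5; points within a row are spread vertically so that they can be seen.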

How the data were processed

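RNA of B cells from 8 mice, 4 per genotype, had been sequenced as strand-specific paired reads. Per the labels and methods, the authors trimmed reads with Trim Galore 0.6.6, mapped them to GRCm39 with HISAT2 2.1.0, deposited raw read counts from Seqmonk over merged isoforms, and deposited TPM from StringTie 2.1.1. How reads mapping to several places were counted is not given in the sources used here, so near copies of at least 300 bases and shorter matches are given beside their genes. No per-sample column was left unused.

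Counts were fitted in R 4.3.3 with edgeR 4.0.16 (filterByExpr by genotype, TMM, quasi-likelihood, batch + sex + genotype, two-sided, Benjamini-Hochberg over all genes). For the TPM, limma 3.58.1 was run on log2(TPM + 1), keeping means of 1 TPM or more; on this scale a difference understates the change of low genes. Normalised CPM use TMM over 8 libraries. DESeq2 1.42.0 was an alternative.

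Same-numbered libraries share batch and sex in their labels, and in replicates 2 to 4 these 2 terms are the replicate block. Their deviations from the genotype means correlated across genes at 0.45, 0.38 and 0.30 in the 3 pairs, each over 0.1.

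3′ UTRs came from the canonical transcripts of GENCODE M39, which matched 52647 of 53242 gene identifiers. Near copies were sought with blastn 2.17.0. The zinc finger spacing of the proteins was not analysed here. The code was tested on simulated data.

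The members and the lists were chosen with earlier results of these data known. The genes named are the 10 members, Eif4a1, the 2 called genes with the largest change in each direction of each list, and, for the 3 members with the largest change, the 2 with the closest profile (mean of 10 CPM or more). Tnf, Nfkbid, Ccnd3, Tial1, Ptbp2, Zc3h12c, some cell type markers and near copies were named outside this rule, with their values known. Alternatives were the normalization, DESeq2, filters on low values, the pseudocount, the replicate block, all 8 libraries and leaving out each replicate.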

Additional observations from a re-analysis of the deposited data

Results flagged for a closer look

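Zc3h12a had a library far from the others of its group in both genotypes. In control cells replicate 1 was at 52.3 CPM and the next library at 24.5, a gap of 0.834 of the whole range of the 4 libraries. In 4A1 KO cells replicate 1 was at 72.7 CPM and the next at 36.1, a gap of 0.89 of the range. Both exceed Dixon's 95% critical value for 4 samples. Among the 20 groups examined (10 genes in 2 genotypes) chance gives about 1 such gap. Both libraries are the batch A males that were left out of the tests for reduced viability. Replicate 2, of the same batch, was at 24.5 and 36.1 CPM and replicate 3, also male, at 19.0 and 31.5 CPM, close to replicate 4 at 22.4 and 33.1 CPM. What set replicate 1 apart was not tested.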

How the results depend on the processing

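In counts, no member changed direction under the 10 alternatives, and the calls of Rc3h2 and Zc3h12a were made under each. Tia1, Zfp36l1 and Zfp36l2 had an adjusted p under 0.05 in 10 of 10, Zfp36 in 2, and Rc3h1 and Elavl1 in 1 each. Without the replicate block, Zfp36l2 in TPM was -0.33 (limma adjusted p = 0.0564), no longer past the threshold. The block changed no other call of a member. With no filter on low TPM, Zfp36l1 at 0.32 (adjusted p = 0.0807) and Zfp36l2 at -0.33 (0.0732) lost significance. With all 8 libraries Zc3h12a in TPM was 0.51 (0.117) and lost it, and Tia1 at 0.26 (0.0122) gained it.

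When each replicate was left out in turn, the TPM differences ran from 0.23 to 0.39 for Zfp36l1, with no setting past the threshold, from -0.40 to -0.25 for Zfp36l2, likewise, and from 0.21 to 0.36 for Tia1, which passed without replicate 4. The called genes numbered 1 to 2 among the paralogs, 1 to 3 in the p38-MK2 list and 2 to 5 among the stem-loop targets. The causes were not tested. Over all genes these fits called 3083 to 3821, and DESeq2 with normal shrinkage on replicates 2 to 4 called 2590. With 3 libraries per genotype, low genes such as Tnfrsf4, Cxcl10 and Tnf have wide errors, and exact tests over 3 against 3 libraries cannot go below 0.1.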

Other observations

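Among the 11295 tested genes with an annotated 3′ UTR, 1012 held the nonamer TTATTTATT. In 4A1 KO cells 16.4% of them were called higher and 11.6% lower, with a median log2 fold change of 0.08. Of the 10283 genes without it 10.1% were called higher and 15.4% lower, with a median of -0.03. The 3′ UTRs with the nonamer were longer (median 2678 against 1239 bases). Within 5 classes of length the share called higher was 12.6 to 22.7% with and 7.84 to 15.3% without the nonamer, and it was the larger with the nonamer in each class. The gap was smallest for 3′ UTRs of 2000 to 4000 bases, at 12.6 and 12.1%, and widest for those of 500 to 1000 bases, at 22.7 and 8.32%. These are descriptions over genes of the same libraries and were not tested.

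Genes with a hairpin as defined above numbered 2942, of which 13.4% were called higher and 12.9% lower, compared with 9.72% and 15.8% of the 8353 without one. Their 3′ UTRs were also longer, with medians of 2568 and 1002 bases.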
